A study of Homo sapiens with 36 samples.

Results

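The 8 genes NLRP2, ALPK3, TXNRD2, RWDD2B, ZNF595, LINC00664, KLHL40 and CTHRC1, of 62710 genes in the count table, were chosen because each was far lower in one or both RAI1-edited lines than in the wild type (WT) line on at least 1 day. They were chosen from these same libraries, so their levels against WT are given as a description and were not tested. All 3 lines are H9, an established human embryonic stem cell line, with the genotype labels WT, RAI1 Het and RAI1 Knockout, written here as WT, HET and KO. Every line was driven towards neurons by doxycycline-dependent NGN2 and harvested at day 0, 3 or 7, with 4 libraries in each of the 9 groups. RAI1 encodes a chromatin-associated protein. How many edited clones stand for a genotype is not given in the labels, so a property of the genotype and a property of a clone cannot be told apart. Nothing ties the 4 libraries of a group to separate differentiations beyond their replicate number, so their spread may be partly technical.

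The 8 genes belong to different pathways. NLRP2 is a cytoplasmic NOD-like receptor that is best known from the oocyte, where it is part of the maternal protein complex under the cell membrane. ALPK3, an alpha kinase of the muscle M-band, and KLHL40, a kelch protein that stabilises thin filament proteins, are known from heart and skeletal muscle. TXNRD2 is the mitochondrial thioredoxin reductase, a selenoprotein that keeps mitochondrial thioredoxin reduced. ZNF595 is a KRAB zinc finger gene near the end of the short arm of chromosome 4, and LINC00664 is a long non-coding RNA within a cluster of such genes on chromosome 19. KRAB zinc finger proteins bind DNA, often within transposable elements, and recruit repressive chromatin. CTHRC1 is a secreted collagen-repeat protein that binds WNT proteins and their receptors, and RWDD2B is a little-studied protein with an RWD domain.

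The libraries held between 23.95 M and 56.68 M counts. A level is given as counts scaled to the library's total over genes (CPM), and 3 counts in a library are taken as the floor. Summed over 6 pluripotency markers, the level was 2189 to 4616 CPM over the 12 libraries of day 0, and at day 7 it was 46.4 to 62.4 CPM in WT, 57.1 to 150 in HET and 215 to 281 in KO. The sum over 7 neuron markers was 1174 to 1594 CPM in WT, 1706 to 4273 in HET and 4070 to 8260 in KO at day 3, and 4994 to 9979, 10050 to 13110 and 10410 to 12920 CPM at day 7. These sums thus differed between the lines on the days when TXNRD2 and KLHL40 were lost, and their part in those losses was not tested. RAI1 RNA was not lower in the edited lines: its mean was 36.1 CPM in WT, 41.5 in HET and 40.3 in KO at day 0, and 48.4, 70.4 and 78.4 CPM at day 7, so the level of the edited gene's RNA does not check the genotype labels. Small structural RNAs took 2.84% to 27.5% of a library, and both ends of that range were HET libraries of day 7.

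Promoter windows of 300 bases, 250 before and 50 after a start site, were taken from RefSeq (GRCh38.p14) for 6 of the genes (9 windows). RWDD2B and CTHRC1 had no entry. The 3 windows below are shown because they belong to the most complete losses: NLRP2 (chr19:54965034-54965333, plus strand) and ZNF595 (chr4:53071-53370, plus strand) were the genes without reads in nearly every library of one line. KLHL40 (chr3:42685287-42685586, plus strand) was lost in both lines. CG dinucleotides, where DNA methylation is placed, are in capitals.
NLRP2: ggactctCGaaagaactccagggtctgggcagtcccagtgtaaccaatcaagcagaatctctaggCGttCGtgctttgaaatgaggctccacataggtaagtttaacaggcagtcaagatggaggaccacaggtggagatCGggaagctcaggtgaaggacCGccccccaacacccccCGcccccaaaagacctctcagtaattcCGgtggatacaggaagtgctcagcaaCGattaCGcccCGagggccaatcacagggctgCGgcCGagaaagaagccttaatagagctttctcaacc
ZNF595: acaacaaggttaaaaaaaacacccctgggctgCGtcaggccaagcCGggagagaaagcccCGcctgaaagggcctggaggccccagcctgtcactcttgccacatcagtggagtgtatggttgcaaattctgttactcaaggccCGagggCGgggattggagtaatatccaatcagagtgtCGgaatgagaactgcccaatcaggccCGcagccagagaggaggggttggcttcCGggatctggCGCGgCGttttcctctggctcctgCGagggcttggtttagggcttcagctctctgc
KLHL40: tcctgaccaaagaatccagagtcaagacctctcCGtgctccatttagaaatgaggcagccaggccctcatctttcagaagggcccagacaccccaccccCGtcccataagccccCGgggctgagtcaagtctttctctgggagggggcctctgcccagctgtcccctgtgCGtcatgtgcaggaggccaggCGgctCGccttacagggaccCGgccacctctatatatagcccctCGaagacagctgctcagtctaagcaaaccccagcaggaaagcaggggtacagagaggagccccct

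The upstream TXNRD2 window held 29 CG dinucleotides and the ALPK3 window 36, against a median of 14 over 35116 windows of the same table. These were the 2 of 9 windows with an observed-to-expected CG ratio of at least 0.6 and a GC content of at least 50%, a pair of properties that 46.9% of all windows had. The NLRP2 and ZNF595 windows held 12 CG each, LINC00664 20 and KLHL40 8. NLRP2 has a second listed start 1090 bases further on, whose window differs from the printed one at 3 of 300 positions. The windows were searched on both strands for CAGATG and CAGCTG, E-box hexamers bound by factors of the NGN2 and myogenic type, which do not overlap each other. CAGCTG occurred at 2 places in the KLHL40 window and 1 place in a TXNRD2 window, and 17.9% of all windows held it. CAGATG occurred in the CG-poor TXNRD2 windows, at 2 places and 1 place, and 14.7% of all windows held it. No DNA methylation or binding was measured, so these are descriptions of sequence alone.

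**Figure D1:**
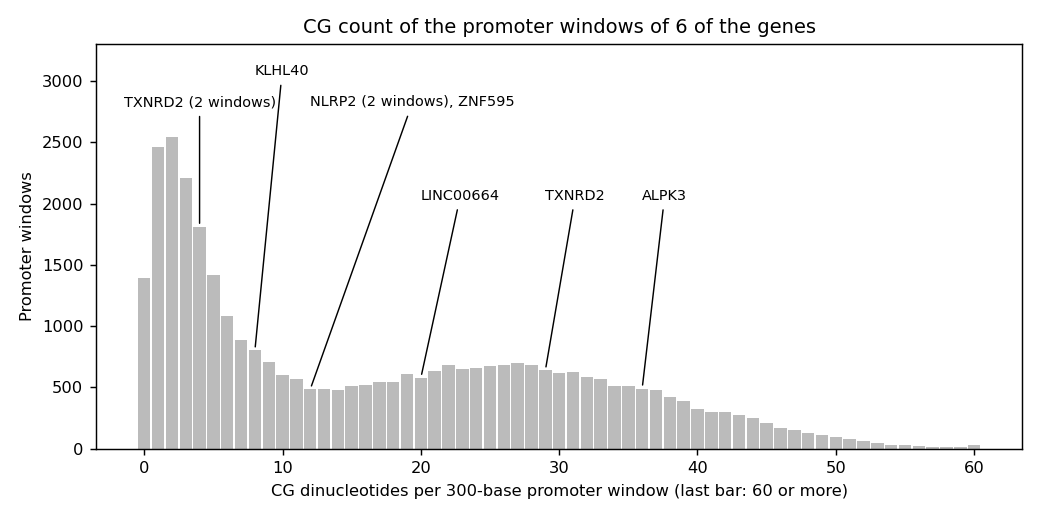
Number of CG dinucleotides (x axis) in 300-base promoter windows of RefSeq genes, with the number of windows on the y axis; lines mark the 9 windows of 6 of the described genes. ALPK3 (36) and the upstream TXNRD2 window (29) lie among the CG-rich windows, and the other TXNRD2 windows (4 each) and KLHL40 (8) lie among the CG-poor ones.

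To sort the genes by line and day, a gene was called lost where the WT mean was at least 1 CPM, the mean of the edited line was at most 1/8 of it and no library of that line reached any WT library. NLRP2 was lost in KO on all 3 days, ALPK3 in KO at days 0 and 7, and TXNRD2 in KO at days 3 and 7. RWDD2B, ZNF595 and CTHRC1 were lost in HET on all 3 days and LINC00664 in HET at days 0 and 3. The day 0 call of CTHRC1 ended without replicate 2, when WT was 5.235-fold above HET. KLHL40 was lost at day 7 in KO and in HET, so for this gene the loss was not confined to one edited line. The members counted as lost were 2, 2 and 4 in KO at days 0, 3 and 7 and 4, 4 and 4 in HET. By the same rule, over all genes with a WT mean of at least 1 CPM, 0.084%, 0.32% and 1.91% were lost in KO at days 0, 3 and 7, and 0.116%, 0.153% and 0.475% in HET. Nothing is read from the members' share, since they were chosen for it. Just inside the 8-fold limit was CTHRC1 in HET at day 0, with WT 8.17-fold higher. Where the WT mean was at least 1 CPM, the nearest value outside it was ALPK3 in KO at day 3, with WT 4.02-fold higher.

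**Figure D2:**
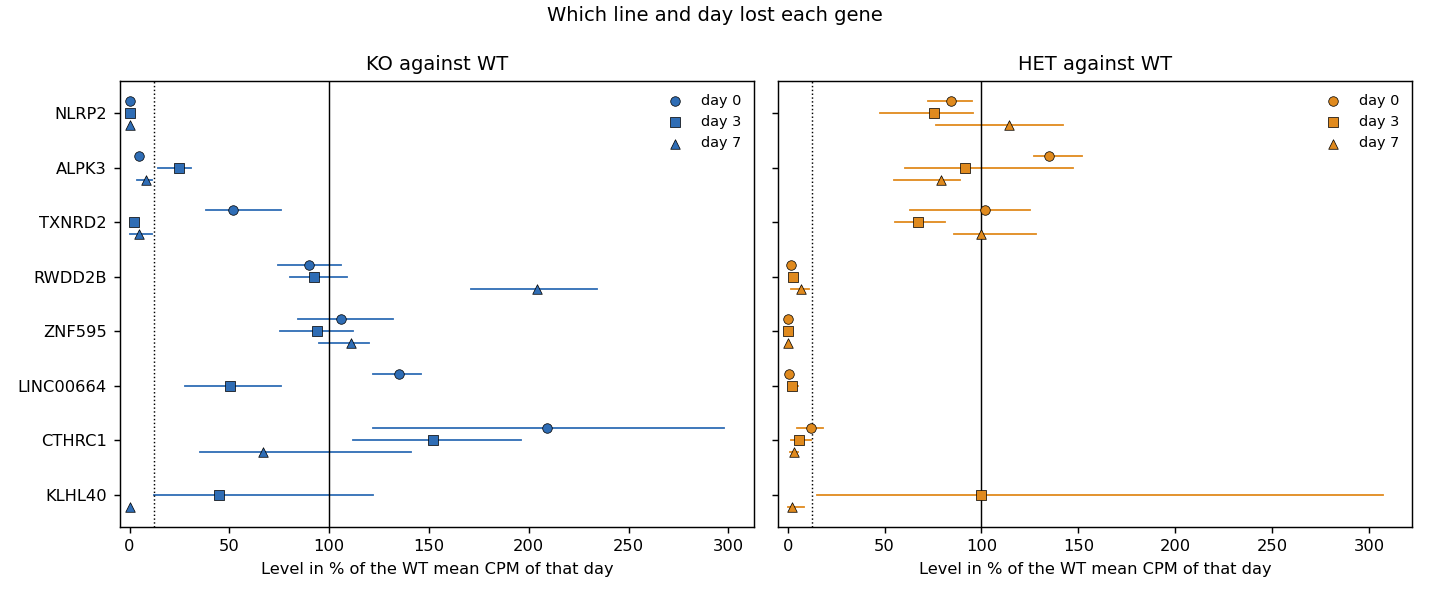
Mean level of each gene in KO (left) and HET (right) in percent of the WT mean CPM of that day, with bars from the lowest to the highest of 4 libraries; the solid line is 100% and the dotted line 1/8 of WT, and points are left out where the WT mean was under 1 CPM. NLRP2, ALPK3 and TXNRD2 have HET means between 67% and 135% and lower KO means, which are 51.9% for TXNRD2 at day 0 and 24.9% for ALPK3 at day 3 and under the dotted line on the other days; RWDD2B, ZNF595, LINC00664 and CTHRC1 have HET means under the dotted line and KO means between 50.3% and 209%.

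NLRP2 (ENSG00000022556, chr19:54953130-55001142 on GRCh38, plus strand) was the most abundant of the 8 genes in the stem cells and was absent from KO. At day 0 the WT libraries held 96.5, 100.3, 108.9 and 109.2 CPM, HET 75.2, 88.6, 86.6 and 98.7 CPM, and KO 0, 0.0368, 0 and 0 CPM. That single read was the only one in the 12 KO libraries, against 14893 reads in the 4 WT libraries at day 0. The pooled ratio of WT to KO at day 0 was 12510, with a 95% counting interval from 2244 to 493900. With no read in KO at days 3 and 7, WT was at least 321-fold and at least 334-fold higher against 3 counts per library. HET overlapped WT on all 3 days, with means of 17.4 against 23.0 CPM at day 3 and 29.2 against 25.5 CPM at day 7. The annotated span of NLRP2 overlaps NLRP7, its relative on the other strand, which had between 0 and 10 counts in all per group. The RNA was therefore missing in KO already before induction and did not return.

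ALPK3 (ENSG00000136383, chr15:84816680-84873482, plus strand) was low in KO without being absent. At day 0 it stood at 24.4, 18.7, 26.7 and 23.7 CPM in WT and at 1.18, 1.44, 1.05 and 0.704 CPM in KO, a 21.4-fold difference of the means. The HET libraries, at 30.3, 29.7, 31.2 and 35.6 CPM, were all above the WT libraries at day 0. By day 3 the gap between WT (11.1, 7.63, 11 and 10.4 CPM) and KO (2.57, 3.07, 1.45 and 2.89 CPM) had narrowed to 4.02-fold, still without overlap. It was 12.2-fold at day 7, with 24, 55.6, 47 and 39.3 CPM in WT, 36.5, 35.4, 22.8 and 36.9 CPM in HET and 1.48, 3.98, 3.35 and 4.78 CPM in KO. Every KO library retained reads, with 131, 426 and 529 counts in all at the 3 days.

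TXNRD2 (ENSG00000184470, chr22:19875517-19941992, minus strand) was, among the genes lost in KO alone, the one whose loss was called only after induction. At day 0 KO held 4.91, 9.50, 6.78 and 4.77 CPM against 11.3, 16.8, 12.1 and 9.75 CPM in WT, below all WT libraries by a ratio of 1.93. At day 3 KO held 0.156, 0.178, 0.0764 and 0.0657 CPM (20 counts in all) while WT held 6.54, 4.61, 5.38 and 4.88 CPM, a ratio of 45.0. At day 7 the values were 0, 0.0675, 0.257 and 0.0902 CPM in KO and 2.59, 1.89, 2.05 and 2.42 CPM in WT, a ratio of 21.6 (43.75 without replicate 3). HET overlapped WT at days 0 and 7 and lay below it at day 3, at 4.33, 3.08, 3.95 and 2.97 CPM.

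RWDD2B (ENSG00000156253, chr21:29004384-29019378, minus strand) was reduced to a trace in HET and kept in KO. The WT libraries held 9.66, 12.6, 10.1 and 10.4 CPM at day 0, KO 8.35, 11.3, 7.97 and 10.9 CPM, and HET 0.234, 0.112, 0.292 and 0.168 CPM, so WT was 53.0-fold above HET. The ratio was 36.8 at day 3, where HET held 0.254, 0.265, 0.176 and 0.0938 CPM, and 14.4 at day 7, where it held 0.0808, 0.544, 0.428 and 0.310 CPM. WT itself declined, from 7.09, 7.37, 7.77 and 6.81 CPM at day 3 to 3.98, 6.23, 3.91 and 5.49 CPM at day 7, so part of the narrowing lies in WT. KO at day 7, at 9.71, 11.5, 10.3 and 8.39 CPM, was above every WT library by a ratio of 2.04, so the lines lay on opposite sides of WT.

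ZNF595 (ENSG00000272602, chr4:53285-88211, plus strand) had no read in any of the 12 HET libraries. WT held 11.8, 10.6, 10.6 and 8.78 CPM at day 0, 5.20, 5.76, 4.94 and 2.87 CPM at day 3 and 7.66, 7.44, 6.25 and 3.28 CPM at day 7. Against 3 counts per library, WT was at least 102-fold, 62.0-fold and 72.8-fold higher than HET at the 3 days. KO followed WT, with 13.7, 11.7, 10.0 and 8.79 CPM at day 0, 4.42, 4.39, 5.27 and 3.55 CPM at day 3 and 7.24, 7.42, 6.92 and 5.83 CPM at day 7, overlapping WT each time. Zinc finger genes of this cluster resemble each other in sequence, and the deposited values are estimates that divide shared reads between genes, so the level of each is less certain than its count implies.

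LINC00664 (ENSG00000268658, chr19:21483374-21503238, plus strand) was lost in HET while WT still expressed it. At day 0 WT held 4.77, 6.79, 6.19 and 7.95 CPM, KO 7.83, 9.36, 8.81 and 8.79 CPM, and HET 0.0293, 0.0747, 0 and 0.028 CPM (4 counts in all), a ratio of WT to HET of 195. At day 3 HET held 0.228, 0.0796, 0.0529 and 0.0313 CPM against 4.91, 5.15, 3.51 and 4.16 CPM in WT, a ratio of 45.2 (78.2 without replicate 1), and KO lay below WT at 1.22, 2.76, 1.55 and 3.37 CPM. By day 7 the WT level had itself dropped to 1.25, 0.943, 0.222 and 0.522 CPM, under 1 CPM on average. HET then held 0.343, 0.258, 0.227 and 0.116 CPM and overlapped WT, so no loss could be called. Its span overlaps ZNF429 and the protein-coding gene ENSG00000269237 (chr19:21405159-21491266), both on the same strand. Reads in the shared parts can therefore be assigned to any of these genes.

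CTHRC1 (ENSG00000164932, chr8:103371515-103382997, plus strand) was low in WT stem cells and low in HET throughout. At day 0 the libraries held 0.919, 2.57, 1.01 and 1.58 CPM in WT, 0.264, 0.0747, 0.125 and 0.280 CPM in HET, and 4.27, 4.53, 2.03 and 1.85 CPM in KO, whose range overlapped that of WT. At day 3 HET held 0.203, 0.0796, 0.0882 and 0.0313 CPM and WT 0.584, 1.83, 2.36 and 2.01 CPM, a ratio of 16.9 (31.1 without replicate 1). The ratio was 31.4 at day 7, when WT held 3.87, 11, 5.44 and 9.87 CPM and HET 0.0808, 0.315, 0.176 and 0.388 CPM. KO held 2.66, 3.49, 3.45 and 10.6 CPM at day 7 and overlapped WT through replicate 4 alone. WT was 1.49-fold above KO, or 2.12-fold without replicate 4. The summed level of 9 mesenchyme and fibroblast markers at day 7 was 26.3 to 42.3 CPM in WT, 3.28 to 37.7 in HET and 2.42 to 5.41 in KO. That sum was lowest in KO, where CTHRC1 was not called lost. At day 0 the sum ranged from 277 to 1198 CPM in WT and from 239 to 1544 CPM in HET. Its part in the CTHRC1 levels was not tested. In bulk RNA fewer cells of a type and less RNA per cell cannot be told apart.

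KLHL40 (ENSG00000157119, chr3:42685519-42692544, plus strand) was switched on with induction and then lost in both edited lines. All groups were near 0 at day 0, with 14 counts in all in WT, 2 in HET and 1 in KO. At day 3 the groups overlapped, at 8.12, 7.63, 12.5 and 16.6 CPM in WT, 6.84, 1.67, 2.06 and 34.4 CPM in HET, and 1.95, 1.36, 3.13 and 13.6 CPM in KO. That overlap rested on replicate 4 of each edited line, and replicate 4 was also the highest WT library. Without replicate 4 both edited lines lay below all WT libraries. WT was then 2.67-fold above HET and 4.38-fold above KO. At day 7 WT held 34.9, 30.0, 15.7 and 8.97 CPM, whereas HET held 1.86, 0.0573, 0 and 0.310 CPM and KO 0.047, 0, 0 and 0.0601 CPM (4 counts in all). The ratio of WT to the edited line at day 7 was 40.2 for HET (149 without replicate 1) and 835 for KO (556 without replicate 2). The summed level of 10 muscle markers at day 7 was also lower in KO (20.4 to 38 CPM, all below WT) than in WT (57 to 97.3 CPM), with HET between 29.7 and 63.8 CPM. At day 3 that sum was higher in KO (103 to 193 CPM) than in WT (54.2 to 73.9 CPM), while KLHL40 in KO overlapped WT through replicate 4 alone. The part of these markers in the day 7 result was not tested.

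**Figure D3:**
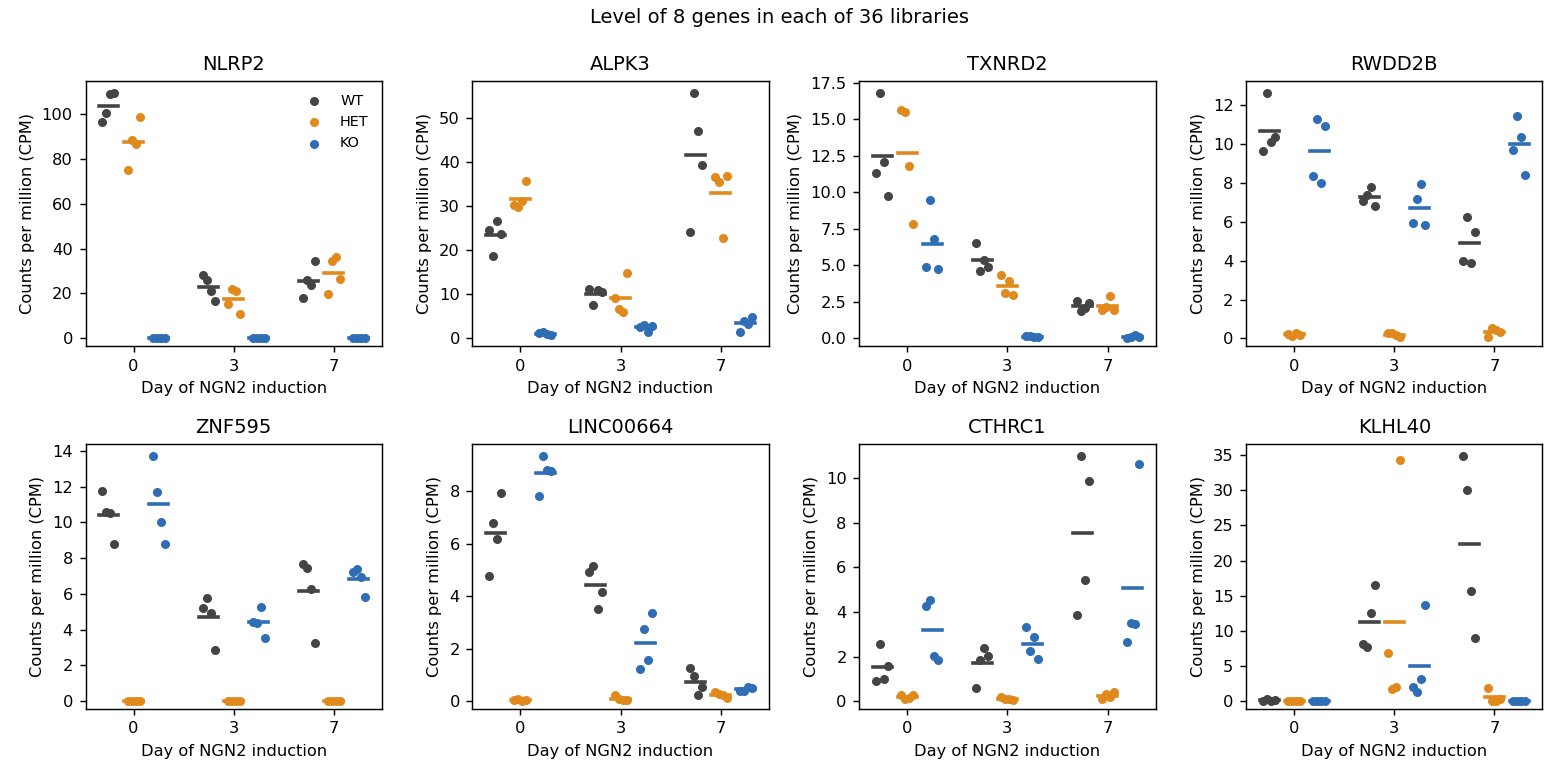
Level in CPM (y axis, linear from 0) of the 8 genes in each of 36 libraries, by day of NGN2 induction (x axis) and line (colour); horizontal bars are means of 4 libraries. KO points lie at or near 0 for NLRP2 on every day and for TXNRD2 from day 3, HET points lie at 0 for ZNF595, and both lines lie near 0 for KLHL40 at day 7.

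Across all genes, 13 were lost in KO and 18 in HET at day 0, of which 7 were lost in both. The numbers were 50, 24 and 13 at day 3 and 301, 75 and 58 at day 7. KO and HET are compared with the same WT libraries, so a chance high WT value enters both counts. On all 3 days, 4 genes were lost in KO and 5 in HET, 2 of them in both. Those lost in KO alone on every day were NLRP2 and the zinc finger gene ZNF680. RWDD2B, ZNF595 and CTHRC1 were lost in HET alone on every day, and the zinc finger genes ZNF572 and ZNF726 in both lines. The genes outside the 8 were named here after their values were seen. WT means of ZNF680 were 4.98, 4.47 and 3.97 CPM at days 0, 3 and 7.

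Change over time within a line was not used to choose the genes and was tested with edgeR's quasi-likelihood test and Benjamini-Hochberg adjustment over all genes. It shares the WT libraries with the choice. In WT, 6 of the 8 genes changed from day 0 to day 3 and 5 of 8 from day 3 to day 7, against 60% and 46.2% of all genes tested. To day 3 NLRP2 fell by 2.07 on the log2 scale (SE 0.19, adjusted p = 4.46e-07, edgeR), with all 4 libraries of day 3 below all 4 of day 0. ALPK3 fell by 1.1 on the log2 scale to day 3 and rose by 2.14 to day 7 (edgeR adjusted p = 0.000656 and 3.42e-06). TXNRD2 fell in both steps, by 1.11 and 1.14 on the log2 scale (adjusted p = 0.000391 and 0.00059, edgeR). ZNF595 fell to day 3, with a log2 change of -1.053 (adjusted p = 0.00206, edgeR), and its change of 0.50 to day 7 was not called (adjusted p = 0.111, edgeR) except without replicate 4 (adjusted p = 0.0239). NLRP2 at day 7 was not called against day 3 (0.28, adjusted p = 0.239, edgeR), though it was without replicate 1 (0.46, adjusted p = 0.0448).

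RWDD2B fell in WT by 0.44 and then by 0.47 on the log2 scale (edgeR adjusted p = 0.0374 and 0.0386), the weakest of the calls: each ended with any 1 of the 4 replicates left out. LINC00664 was not called to day 3 (log2 change -0.43, adjusted p = 0.269) and fell by 2.51 to day 7 (adjusted p = 5.14e-05, edgeR). CTHRC1 rose by 2.23 from day 3 to day 7 (adjusted p = 0.00104, edgeR), after a change to day 3 that was not called (0.28, adjusted p = 0.616). KLHL40 rose by 6.94 on the log2 scale to day 3 from 14 counts at day 0 (adjusted p = 9.27e-07, edgeR). Its further change to day 7 (1.051) was not called with all 4 replicates (adjusted p = 0.0692, edgeR) and was called without replicate 4 (1.61, adjusted p = 0.0105).

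The edited lines that kept a gene changed it in ways that can be set beside WT, though the difference between lines over time was not tested. In HET, NLRP2 fell by 2.23 and ALPK3 by 1.65 on the log2 scale to day 3, and from day 3 to day 7 they rose by 0.81 and 1.90 (edgeR adjusted p = 0.005 and 0.000343). Among all genes tested in HET, 48.3% were called from day 0 to day 3 and 41.2% from day 3 to day 7. In KO those shares were 59.3% and 47.8%. KO ZNF595 fell by 1.19 and then rose by 0.75 (edgeR adjusted p = 0.000149 and 0.00624), and KO LINC00664 fell by 1.81 and 2.24 on the log2 scale (adjusted p = 0.000184 and 9.24e-05, edgeR). KO RWDD2B rose by 0.68 from day 3 to day 7 (adjusted p = 0.0109, edgeR), the step at which WT RWDD2B fell. The day 7 rises in KO ended without replicate 2 for both genes (ZNF595 0.65, adjusted p = 0.0593; RWDD2B 0.57, adjusted p = 0.0775) and, for RWDD2B, without replicate 1 (0.60, adjusted p = 0.0533).

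For a gene in the line that lost it, the change over time rests on the values that chose the gene and is given without a test. In KO, TXNRD2 had a mean of 6.49 CPM at day 0 and 0.119 CPM at day 3, and ALPK3 a mean of 1.09 CPM at day 0 and 2.50 CPM at day 3. KLHL40 had means of 5.01 CPM at day 3 and 0.0268 CPM at day 7 in KO, and of 11.2 and 0.556 CPM in HET. The HET libraries of these 2 days overlapped for KLHL40, and the KO libraries did not.

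Levels were compared between genes per length, as the deposited TPM, in WT. At day 0 NLRP2 led with 23.5 ± 1.74 TPM (SD, n = 4), followed by TXNRD2 (7.45 ± 2.75), RWDD2B (4.82 ± 0.677), ZNF595 (3.90 ± 0.852), ALPK3 (2.05 ± 0.565), LINC00664 (1.695 ± 0.217), CTHRC1 (1.125 ± 0.504) and KLHL40 (0.0275 ± 0.034). In that order, TXNRD2 and RWDD2B, RWDD2B and ZNF595, ALPK3 and LINC00664, and LINC00664 and CTHRC1 had overlapping ranges of mean ± SD. At day 7 KLHL40 led with 3.155 ± 1.85 TPM, with NLRP2 (2.91 ± 1.03), CTHRC1 (2.64 ± 1.59), ALPK3 (1.84 ± 0.857), ZNF595 (1.07 ± 0.479) and RWDD2B (1.05 ± 0.414) overlapping it in mean ± SD, and LINC00664 came last at 0.0925 ± 0.0532 TPM. The order of the genes at day 7 differed from that at day 0.

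The neighbours of each gene were taken from the 5 nearest genes on each side with a mean of at least 1 CPM in some group, 74 in all; ZNF595 has none between it and the chromosome end. They were tested with edgeR within each day. In KO, 5 of 70 neighbours tested passed at day 0 (3 higher, 2 lower), 24 of 74 at day 3 and 28 of 71 at day 7, against 2.08%, 21.6% and 32.6% of all genes (0.416%, 8.93% and 15.6% lower and 1.66%, 12.6% and 17% higher). In HET, 4 of 70, 2 of 74 and 14 of 71 passed, against 1.63%, 3.28% and 14.4% of all genes (0.411%, 0.761% and 6.1% lower and 1.22%, 2.52% and 8.31% higher). With replicate number as a block, 12 passed in KO at day 0 and 6 in HET at day 3. Leaving out 1 replicate of every group moved the HET count at day 7 most, to 29 without replicate 1 and to 3, 4 and 8 without replicates 2, 3 and 4. The median log2 change of the neighbours in KO was 0.04, 0.06 and -0.14 on the 3 days, beside 0.01, -0.05 and -0.04 over all genes. In HET it was 0.03, 0.02 and -0.07, beside 0.01, 0.02 and 0.00.

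Beside NLRP2 and KLHL40, a gene next to the lost one was lower in KO too. GP6, the platelet collagen receptor gene (chr19:55013705-55038264, minus strand), ends 12.6 kb after the end of NLRP2. Its level was low everywhere and lower in KO, at 0.385, 0.798, 0.903 and 0.611 CPM in WT and 0.0289, 0.0368, 0.0725 and 0.0959 CPM in KO at day 0. It fell in KO on the 3 days, with log2 changes of -3.43, -4.38 and -3.98 (edgeR adjusted p = 0.000468, 0.000614 and 4.16e-05), from 7, 7 and 11 counts in all in KO. The overlapping antisense gene GP6-AS1, which starts 5.05 kb after NLRP2, fell by 1.88, 1.66 and 2.19 in KO (edgeR adjusted p = 0.00141, 0.0111 and 0.000265). The GP6-AS1 call ended at day 0 without replicate 3 (adjusted p = 0.0503) and at day 3 without replicate 1 or 3. In an alternative fit, limma on log2(TPM + 1), GP6 was not called on the 3 days (adjusted p = 0.141, 0.0592 and 0.0818). GP6-AS1 was not called in that limma fit at days 3 and 7 (adjusted p = 0.677 and 0.527). Neither gene was called in HET on any day, with GP6 changing by -0.02, -0.16 and -0.23. GP6 and GP6-AS1 overlap on opposite strands and the use of strand in counting is not given in the sources used here, so their reads cannot be told apart. On the other side of NLRP2 the nearest expressed gene was LENG9, 489 kb away, which was not called in either line.

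Beside LINC00664, the transcript ENSG00000268119 (chr19:21444241-21463908, minus strand), 19.5 kb before it, followed the same line. At day 0 it stood at 18.8, 15.5, 17.9 and 16.2 CPM in WT, at 6.15, 5.45, 6.47 and 5.88 CPM in HET and at 36.9, 28.7, 30.1 and 29.1 CPM in KO. It fell in HET by 1.5, 1.87 and 1.1 on the log2 scale (edgeR adjusted p = 2.95e-06, 0.000378 and 0.0047) and rose in KO by 0.89 at day 0 and 0.85 at day 7 (adjusted p = 0.000292 and 0.00703). ZNF429, which overlaps LINC00664, was not called in HET and rose in KO by 1.39 at day 3 and 1.29 at day 7 (edgeR adjusted p = 0.0265 and 0.00565). The ZNF429 call at day 3 ended without replicate 1, 2 or 3. The HET value for ENSG00000268119 at day 7 was not called without replicate 2 or 3, nor was its KO value at day 7 without replicate 3. The span of ENSG00000268119 lies within that of ENSG00000269237, a plus-strand gene that also overlaps LINC00664. The use of strand in counting is not given, so reads of these genes may be shared.

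HHATL, a muscle gene related to hedgehog acyltransferase (chr3:42692663-42702827, minus strand), ends 0.119 kb after KLHL40. At day 7 it stood at 5.32, 5.63, 2.35 and 2.07 CPM in WT, 1.09, 0.716, 0.353 and 0.660 CPM in HET and 0.188, 0.135, 0.180 and 0.661 CPM in KO. It fell at day 7 by 3.73 in KO and 2.39 in HET on the log2 scale (edgeR adjusted p = 0.000509 and 0.0101) and was not called at day 3. Like KLHL40 it was near 0 at day 0. The HET call ended without replicate 2 or 3.

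Among the other nearest genes the picture was mixed: SLC28A1 and FZD6 were called lower on some day, and the rest of those given here were not. RTL10, 20.6 kb before TXNRD2 (in order along the chromosome), was not called in either line on any day. The genes next to RWDD2B, LTN1 (11.4 kb before) and USP16 (5.25 kb after), were not called in either line on any day, with HET changes between -0.09 and 0.28 on the log2 scale. ZNF718, the gene nearest to ZNF595 at 36.3 kb, was not lower in HET: its mean was 13 CPM in WT and 14.4 in HET at day 0, and it rose by 0.67 at day 7 (adjusted p = 0.0105, edgeR), a call that ended without replicate 2, 3 or 4. ZNF592, 10.3 kb before ALPK3, changed in KO by -0.11, -0.13 and -0.23 and was not called; SLC28A1, 11.2 kb after it, fell by 2.03 at day 3 (adjusted p = 0.0125, edgeR), a call that ended without replicate 1, 2 or 3. FZD6, 38.7 kb before CTHRC1, fell at day 7 in HET by 1.53 and in KO by 2.42 (edgeR adjusted p = 0.00223 and 5.86e-05), and was not called in HET at days 0 and 3, when CTHRC1 was already low there. SLC25A32, 15.6 kb after CTHRC1, was not called in HET. At day 3 in KO, SLC25A32 rose by 0.85 and FZD6 fell by 0.97 (edgeR adjusted p = 0.0287 and 0.0369). Each of these KO calls ended without replicate 1, 2 or 3. Of 10 neighbours of CTHRC1 in KO, 7 were higher and 1 lower at day 3, beside 12.6% and 8.93% of all genes. At day 7 in KO, 3 were higher and 3 lower. In HET at day 3, 0 of 10 were called. ZBTB47, 19.7 kb before KLHL40, was not called in either line.

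**Figure D4:**
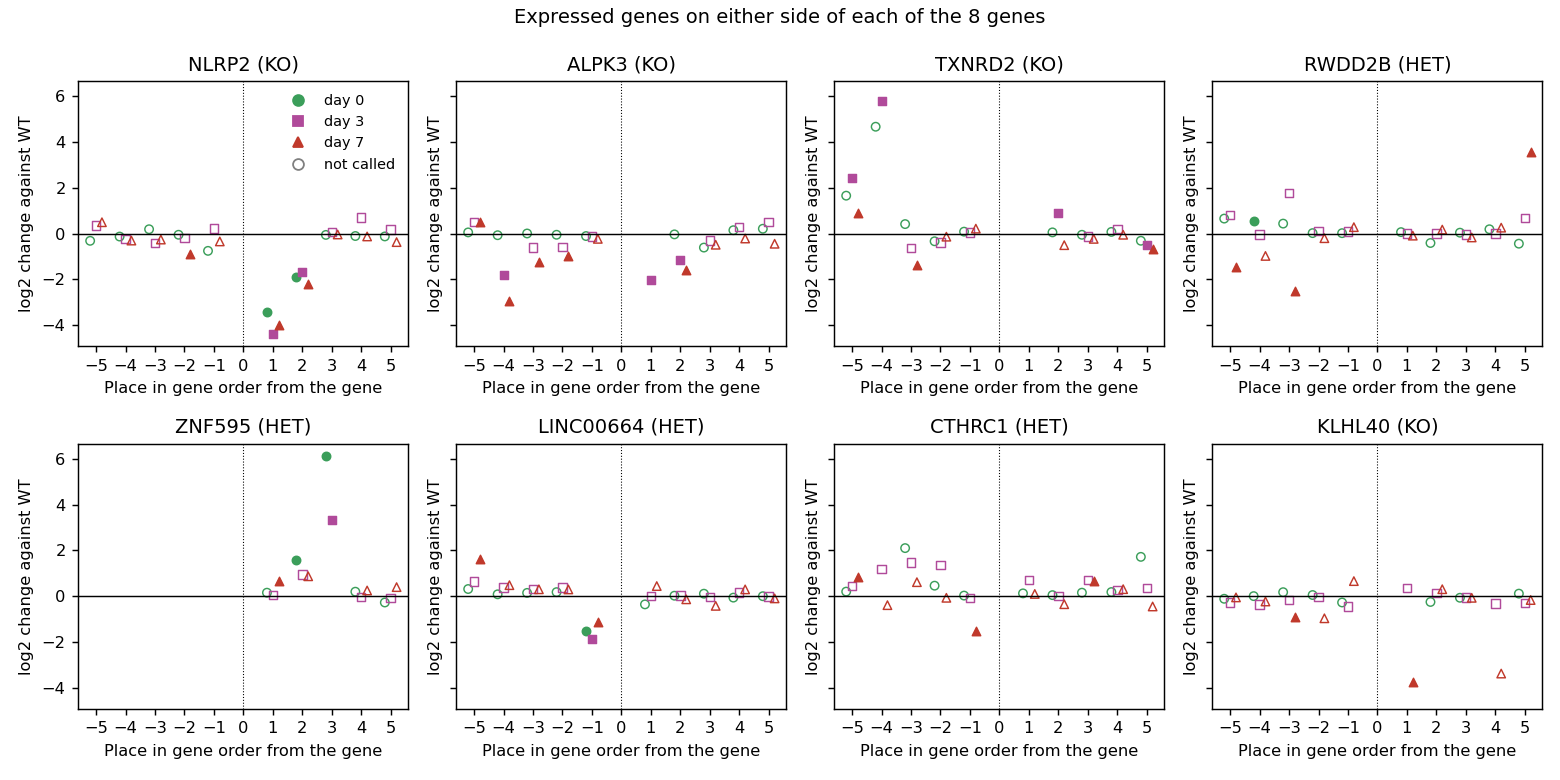
Log2 change against WT (y axis) of up to 5 expressed genes before and after each gene (x axis, place in gene order; the gene itself at 0 is not drawn), in the line named above each panel; filled symbols passed the edgeR test, open symbols did not. Next to NLRP2 and LINC00664 the nearest gene on one side was lower on all 3 days, and next to RWDD2B and ALPK3 no gene at places -1 or 1 was called at day 0.

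**Figure D5:**
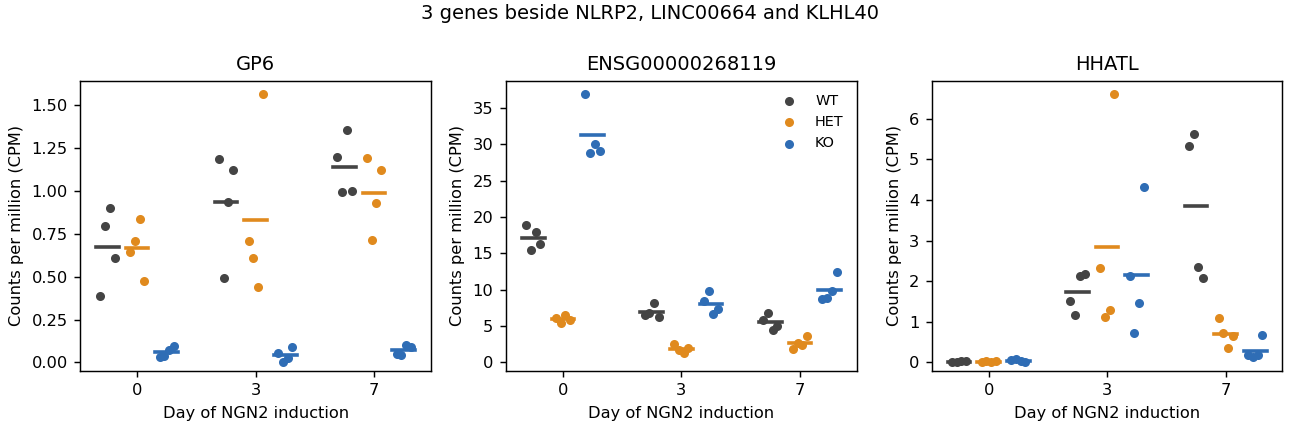
Level in CPM (y axis, linear from 0) of GP6 (beside NLRP2), ENSG00000268119 (beside LINC00664) and HHATL (beside KLHL40) in each library, by day (x axis) and line (colour), with means as bars. GP6 is near 0 in KO on all days, ENSG00000268119 is below WT in HET, and HHATL is below WT in both lines at day 7.

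Genes of the pathways around the 8 genes were counted in the same within-day fits, over 6 lists without the 8 genes themselves. In KO, 7 list genes rose and 0 fell at day 0 by edgeR, 14 rose and 12 fell at day 3, and 16 rose and 16 fell at day 7, of 96 to 98 tested. In HET, 6 rose and 0 fell at days 0 and 3, and 8 rose and 12 fell at day 7. The shares called over all genes are those given above for the neighbours. With replicate number as a block the calls were 13 in KO at day 0, 49 in KO at day 3 and 17 in HET at day 3. The edgeR counts for each list below, those of 0 among them, come from the fit without the block. At an unadjusted p under 0.05, 5 list genes of day 0 were lower in KO and 3 in HET, as were 6 of day 3 in HET, and DESeq2 called 3, 0 and 3 lower. The HET count at day 7 was 51 without replicate 1 and 6, 8 and 12 without replicates 2, 3 and 4, and the KO count at day 3 was 11, 15 and 12 without replicates 1, 2 and 3.

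The list of 23 genes around ZNF595 and LINC00664 holds KRAB zinc finger genes and pseudogenes with their corepressor TRIM28, and its edgeR calls ran one way, opposite to the loss of those genes. In KO 6 of 21, 8 of 21 and 5 of 20 tested were higher on the 3 days, and in HET 4, 3 and 3, with 0 lower in either line. At an unadjusted p under 0.05, a single gene was lower in KO, at day 3, and a single one in HET, at day 0; DESeq2 called 1 lower, for KO at day 3. The median log2 change was 0.25, 0.22 and 0.37 in KO and 0.16, 0.16 and 0.29 in HET, beside medians over all genes between -0.05 and 0.02. ZNF737 was nearly silent in WT (0.155 ± 0.185 CPM, SD, n = 4, at day 0) and stood at 12.8 ± 0.765 CPM in HET and 23.7 ± 2.94 CPM in KO. It rose in KO by 7.26, 7.93 and 7.01 and in HET by 6.36, 6.84 and 6.15 on the log2 scale (edgeR adjusted p at most 2.79e-06 in KO and 9.32e-06 in HET). ZNF732, 8 counts in all in WT at day 0, rose at day 0 by 7.13 in KO and 6.13 in HET (edgeR adjusted p = 5.47e-06 and 2.07e-05). ZNF626 rose on all 3 days in both lines, by 2.30, 2.7 and 2.16 in KO and 1.60, 1.88 and 1.68 in HET. ZNF876P rose in KO on all 3 days and in HET at day 0. The HET day 0 calls ended without replicate 3 or 4 for ZNF626 and without replicate 2, 3 or 4 for ZNF876P, whose KO call at day 3 ended without replicate 1, 2 or 4. The genes of this list resemble each other in sequence. The list was chosen with earlier results of these data known, and zinc finger genes outside it were not counted. Some of those were lower: ZNF680 was lost in KO, and ZNF572 and ZNF726 in both lines, on all 3 days. ZNF283 and ZNF559 were lower in HET at day 0, by 2.78 and 1.28 on the log2 scale. They are named for their likeness to genes lost in HET over these same libraries. Their falls are therefore a description without a test.

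Of 23 thioredoxin and peroxiredoxin genes, 0 passed by edgeR in either line at day 0, when TXNRD2 was already below WT in KO. At an unadjusted p under 0.05, 2 were lower in KO, where DESeq2 also called 2 lower, and 1 was higher and 2 lower in HET, where DESeq2 called 0. By edgeR 3 fell and 0 rose in KO at day 3 (2 higher at an unadjusted p under 0.05, 1 by DESeq2), and 2 fell and 2 rose at day 7. TXNRD3, the testis-expressed thioredoxin reductase, fell by 1.11 at day 3 (adjusted p = 0.0402, edgeR), with PRDX6 (-1.04) and SOD1 (-0.82). Each of these calls ended without replicate 1, 2 or 3. At day 7 the peroxiredoxin gene PRDX1 fell from 537 ± 134 to 172 ± 12.5 CPM in KO and GPX1 from 129 ± 27.9 to 53.6 ± 4.43 CPM, while PRDX2 rose by 0.67. The GPX1 call ended without replicate 4 and the PRDX2 call without replicate 2 or 3. With limma on log2(TPM + 1) the KO calls of PRDX1, GPX1 and PRDX2 ended (adjusted p = 0.21, 0.336 and 0.142). PRDX1 and PRDX6 fell in HET at day 7 by 0.83 and 0.81 (edgeR adjusted p = 0.0264 and 0.0261), calls that ended without replicate 2 or 3.

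In the list of alpha kinases and muscle filament partners, 18 genes were tested at day 7. Of these, 4 rose and 2 fell in KO, and 2 rose and 2 fell in HET. LMOD1, a smooth muscle actin nucleator, fell from 113, 23.5, 27.1 and 27.1 CPM in WT to 0.706, 0.450, 0.644 and 0.601 CPM in KO and 4.75, 5.07, 2.17 and 4.07 CPM in HET (log2 changes -6.32 and -3.60; edgeR adjusted p = 2.37e-05 and 0.00111). ALPK1, a kinase that senses bacterial sugars, rose in KO from 0.336 ± 0.180 to 17.4 ± 7.68 CPM (SD, n = 4) and NEBL, a nebulin relative, from 6.71 ± 4.79 to 61.1 ± 8.40 CPM. NEBL also rose at day 0, by 0.84 in KO and 0.94 in HET, calls that ended without replicate 3 in both lines and without replicate 2 or 4 in KO. In KO OBSL1 fell by 0.99 at day 3 and rose by 0.86 at day 7 (edgeR adjusted p = 0.00188 and 0.0442), and the day 7 call ended with the replicate block (adjusted p = 0.0504, edgeR) and without replicate 1, 2 or 3. NEB, the giant thin filament protein that KLHL40 stabilises, fell in HET at day 7 by 1.81 (adjusted p = 0.027, edgeR), a call that ended without replicate 2, 3 or 4. In KO at day 7, NEB was not called, with means of 12.3 CPM against 13.6 CPM in WT.

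Of 23 NLRP family and maternal complex genes, 6 to 8 were expressed enough to be tested, and 0 passed by edgeR at day 0 in either line, when NLRP2 was missing from KO. At an unadjusted p under 0.05, 2 were higher and 1 lower in KO and 2 higher in HET, and DESeq2 called 1 higher and 1 lower in KO and 0 in HET. NLRP14 fell in KO at day 3 by 1.81 and rose at day 7 by 1.88 (edgeR adjusted p = 0.00597 and 0.00268), and NLRC5 fell by 3.23 in KO at day 7. The NLRP14 call at day 3 ended without replicate 1 or 3. In HET, NLRP1 rose at day 3 and NLRP14 at day 7, calls that ended without any 1 of the replicates for NLRP1 and without replicate 2, 3 or 4 for NLRP14. The summed level of 7 oocyte and germ cell markers was between 2.04 and 5.96 CPM in every library. The 9 RWD domain genes gave 0 edgeR and 0 DESeq2 calls in HET before day 7 (0 at day 0 and 2 at day 3 at an unadjusted p under 0.05), and EIF2AK4 then fell by 0.40. In KO, FANCL fell by 1.1 at day 3 and 0.69 at day 7, RNF14 rose by 0.43 at day 3 and EIF2AK4 fell by 0.33 at day 7. The FANCL call at day 3 held without each replicate in turn and ended with limma on log2(TPM + 1) (adjusted p = 0.55). The other RWD calls each ended without 2 or more single replicates. EIF2AK4 was not called in either line with replicate number as a block (edgeR adjusted p = 0.0733 in HET and 0.0858 in KO), nor was NLRP14 in HET at day 7 (0.0507).

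Among 20 tested genes of WNT ligands, receptors and planar polarity proteins, most of them of the non-canonical branch with which CTHRC1 acts, 1 was higher in HET at day 0 (WNT3A, a ligand best known from the canonical branch), 2 at day 3 (ROR2 and ROR1, by 1.25 and 0.94) and 2 at day 7, when 7 were lower. ROR1 was among those lower at day 7 (-1.26, adjusted p = 0.00724, edgeR), a call that ended without replicate 2. In KO, where CTHRC1 overlapped WT, 0 passed by edgeR at day 0 (5 higher at an unadjusted p under 0.05, 2 higher by DESeq2), 5 rose and 6 fell at day 3, and 4 rose and 9 fell at day 7. In HET at day 7 the ligand gene WNT5A fell by 1.96, FZD6 by 1.53 and the planar polarity gene PRICKLE2 rose by 1.54 (edgeR adjusted p = 0.0187, 0.00223 and 0.00185). In KO the receptor gene ROR1 fell at day 7 from 24.2 ± 5.33 to 5.18 ± 0.550 CPM, CELSR1 fell by 2.28, PRICKLE2 rose by 2.12, and at day 3 ROR2 rose by 2.13 and WNT11 fell by 3.69. The WNT3A call ended with replicate number as a block (adjusted p = 0.0553, edgeR) and without any 1 of the 4 replicates, the day 3 calls of WNT11 in KO and of ROR1 and ROR2 in HET without replicate 1, 2 or 3, and the WNT5A call without replicate 2 or 3.

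The genes most like each of the 8 were ranked by Pearson r on log2(CPM + 1) over the 36 libraries. These r values describe libraries that share lines, days and depth, and they carry no test. RWDD2B and ZNF595 were both chosen as lost in HET, and NLRP2 and ALPK3 as lost in KO. A high r within each of these pairs follows in part from that choice. The levels of the other matching genes come from the libraries that ranked them. RWDD2B and ZNF595, on chromosomes 21 and 4, were each other's nearest match (r = 0.965), followed for both by the zinc finger gene ZNF283 (0.927 and 0.944) and the clustered protocadherin PCDHA11 (0.893 and 0.880). ZNF283 stood at 10.4, 10.6, 11.3 and 11 CPM in WT and 3.22, 1.08, 1.04 and 0.812 CPM in HET at day 0. NLRP2 was close to ALPK3 (0.877) and GP6-AS1 (0.843), and for ALPK3 the nearest were NLRP2, GP6-AS1 (0.858) and GP6 (0.827). CTHRC1 was nearest to the protocadherin PCDHA6 (0.837), ZNF283 (0.796) and ZNF559 (0.792), and PCDHA6 had means of 11.8, 0.554 and 12.5 CPM in WT, HET and KO at day 0. KLHL40 was nearest to LMOD1 (0.954), HHATL (0.943) and APOBEC2 (0.932), the last a muscle member of the cytidine deaminase family.

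LINC00664 was nearest to MALL (0.883), CGAS (0.855), which encodes the sensor of cytosolic DNA, and the mitochondrial ribosomal gene MRPL3 (0.786). MRPL3 means were 229, 106 and 212 CPM in WT, HET and KO at day 0, and MALL means 4.84, 0.537 and 6.45 CPM. TXNRD2 was nearest to HPS3 (0.922), RAB27A (0.905) and NBPF19 (0.899). HPS3, which takes part in making lysosome-related organelles, had means of 69.9, 66.5 and 31.4 CPM in WT, HET and KO at day 0 and 21.0, 20.4 and 9.94 CPM at day 7. Unlike TXNRD2, HPS3 therefore stayed near the same fraction of WT in KO at days 0 and 7.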

How the data were processed

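RNA-seq libraries of ribosome-depleted RNA from 36 H9 cultures (9 groups of 4) were analysed. The authors deposited expected counts per gene, TPM and FPKM values; per the submitters' processing notes the tools were cutadapt 4.8, FastQC 0.11.8, MultiQC 1.20, STAR 2.7.8a and RSEM 1.3.3, with GRCh38, and the use of strand is not given in the sources used here. The deposited expected counts were rounded and 4 reporter sequences left out. FPKM was not used. RSEM-type estimates divide reads between similar genes, which lowers the certainty of zinc finger genes. Of the gene identifiers, 92.9% matched GENCODE 29, which gave positions.

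Counts were scaled by TMM, filtered with filterByExpr and tested by quasi-likelihood in edgeR 4.0.16 under R 4.3.3, with Benjamini-Hochberg adjustment and a threshold of 0.05. Lines were compared within a day and days within a line, each on 12 libraries. Alternatives were DESeq2 1.42.0 and its size factors, library size alone, no filter, limma 3.58.1 on log2(TPM + 1), a replicate block and leaving out each replicate. Replicate numbers were taken to pair libraries where all 4 same-numbered pairs deviated together (r above 0.1). It held between WT and KO, with r from 0.260 to 0.645 on day 0 and from 0.127 to 0.565 on day 3, and between WT and HET on day 3 (0.167 to 0.78). Calls and adjusted p values in these comparisons come from the fit without the block, unless the block is named. Block counts are given for the totals and not for each list. Members and lists were chosen with earlier results of these data known. The named genes were the members, overlapping and nearest genes, the 3 most alike genes of each member, and up to 3 called genes with the largest change per list. The fits were tested on simulated counts. All libraries carried 1 batch label. Of the genes under this rule, 1 is not reported here. Intervals and floors cover counting error only.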

Additional observations from a re-analysis of the deposited data

Results flagged for a closer look

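Of 62 groups of 4 libraries examined for a library far from the rest (Dixon's criterion), 5 held one, where chance gives about 1 in 20, or 3.1. They were ALPK3 in HET replicate 3 at day 7 (22.8 CPM, below the rest), CTHRC1 in KO replicate 4 at day 7 (10.64 CPM, above the rest), and KLHL40 in HET replicate 4 at day 3 (34.37 CPM), KO replicate 4 at day 3 (13.62 CPM) and HET replicate 1 at day 7 (1.858 CPM), all above the rest. Both day 3 libraries of KLHL40 carry replicate number 4, which was also the highest in WT (16.59 CPM). The number given by chance takes the groups as independent. ALPK3 at day 0 lay on opposite sides of WT in the edited lines, with means of 1.094 CPM in KO and 31.69 CPM in HET, and so did RWDD2B at day 7, with 9.979 CPM in KO and 0.341 CPM in HET. Every library of one line lay below and every library of the other above all WT libraries. The difference between the lines was not tested.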

How the results depend on the processing

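Scaling by DESeq2 size factors or by library size alone kept every count of calls within 1.5 times its value and turned no sign. DESeq2 itself moved 4 counts: neighbours called in KO at day 0 (12) and HET at day 3 (5), and list genes called in KO at day 0 (15) and HET at day 3 (10). The replicate block moved 5: neighbours in KO at day 0 (12) and HET at day 3 (6), and list genes in KO at day 0 (13), KO at day 3 (49) and HET at day 3 (17). It moved no other count by over 1.5 times and, among genes over time, ended the day 3 call of RWDD2B in WT (adjusted p = 0.054, edgeR). With limma on log2(TPM + 1) neighbours called were 3, 3 and 4 in KO at days 0, 3 and 7 and 2, 0 and 0 in HET at days 0, 3 and 7, and list genes called were 3 and 5 in KO at days 3 and 7 and 2, 1 and 2 in HET, where edgeR called 2 and 14 neighbours in HET at days 3 and 7. Taking 3 neighbours on each side left 17 called in KO and 9 in HET at day 7, with fewer genes tested. Requiring a WT mean of at least 5 CPM left 1 gene lost in HET at day 3 in place of 4, as fewer genes were eligible.

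Leaving out 1 replicate of every group gave ranges of 10 to 25 and 13 to 32 neighbours called in KO at days 3 and 7, and 2 to 3, 1 to 7 and 3 to 29 in HET at days 0, 3 and 7. For list genes the ranges were 4 to 9, 11 to 38 and 21 to 42 in KO and 2 to 6, 2 to 12 and 6 to 51 in HET at days 0, 3 and 7. With library totals of 23.95 M to 56.68 M, 3 counts set the lowest level at which a gene could be called present, so the depth of loss below it was not measurable.

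Signs turned in 14 of 1470 recomputed values of single genes, while 1193 kept direction and call. For changes over time these were CTHRC1 in WT to day 3 (-0.359 with limma; -0.0976 to 0.647 with 1 replicate left out) and in KO (-0.414 to 0.132), and from day 3 to day 7 in WT NLRP2 (-0.124 with limma; -0.0187 to 0.465 with 1 replicate left out) and ZNF595 (-0.00545 with limma). For comparisons with WT at day 7, limma on log2(TPM + 1) gave 0.0858 for PRDX1, 0.41 for EIF2AK4, 0.13 for NEB, 0.0847 for ZNF559, 0.00243 for PCDHA11 and 0.0541 for NBPF19 in HET, and 0.0838 for FANCL and 0.107 for EIF2AK4 in KO, where edgeR gave falls. In all, 255 of the recomputed values lost their call and 8 gained one. The cause was not tested.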
